A study of Mus musculus with 6 samples.

Results

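The 33 genes described here make cholesterol and build, desaturate, elongate and handle long fatty acids in the retina. They were chosen by name from the 49997 genes of a table of RNA sequencing of mouse retina, and all 33 were found. Sterol synthesis is represented by 17 enzymes from Hmgcs1 to Dhcr7, fatty acid elongation and desaturation by 9 enzymes, and the other 7 genes are the sterol-sensing transcription factors Srebf1 and Srebf2, the fatty acid synthesis enzymes Acaca and Fasn, and Acsl6, Mfsd2b and Adipor1. Polyadenylated RNA came from 6 male retinas, 1 retina per library. Of these, 3 carried the genotype label Samd7 knockout (-10A) and were taken at postnatal day 31, and 3 were labelled c57Bl6/j wt and were taken at postnatal day 36. Genotype and age therefore cannot be told apart. No label states whether each retina is from its own mouse, and p-values therefore cover only how far these retinas vary. Samd7 is a sterile alpha motif protein of photoreceptors, and the title of the study concerns its part in keeping photoreceptor identity.

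Samd7 itself was not lower under the knockout label. It had 57837, 45755 and 44932 normalized reads in the libraries labelled Samd7 KO, against 6349, 8141 and 8122 in wild type, 6.57-fold higher (adjusted p by limma = 1.54e-08). The targeted gene thus goes against the label at the level of the whole gene, and directions below are given for the libraries labelled KO. The labels do not say what the -10A change removes.

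Photoreceptor outer segments are renewed throughout life, and their disc membranes are unusually rich in docosahexaenoic acid (DHA), a polyunsaturated fatty acid. DHA is taken up from the blood or made from dietary precursors by alternating desaturation and elongation, with a last shortening step in peroxisomes. Cholesterol is made from acetyl-CoA through mevalonate, squalene and lanosterol. SREBP transcription factors, encoded by Srebf1 and Srebf2, are released from the endoplasmic reticulum when sterols are scarce and activate genes of both branches.

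In the libraries labelled Samd7 KO 2 of 17 sterol enzymes changed, in opposite directions, while 3 of the 5 elongases rose by 1.58-fold to 1.67-fold. Of the 33 genes, all of which passed the filter on low values, 4 rose, 4 fell and 25 did not pass the test (limma-trend on log2 of normalized reads + 1, called at a Benjamini-Hochberg adjusted p under 0.05 over 20277 genes). Among all genes tested 6.79% were called higher and 5.21% lower, which is the background for the 4 members called in each direction. Among sterol enzymes 1 of 17 rose and 1 fell, with a median log2 fold change of 0.01. Among elongation and desaturation enzymes 3 of 9 rose and 0 fell, with a median log2 fold change of 0.07, beside a median of 0.00 over all genes tested. The difference between the lists was not tested. Reads recovered per library ranged from 44.2 to 53.1 M in KO-labelled libraries and from 47.7 to 62.8 M in wild type. Of all called genes, 56.6% were higher in the libraries labelled KO. The share was 71.2% when libraries were scaled to total reads and 48.9% by edgeR with upper-quartile factors. Without KO 3, wild type 2 or wild type 3 the number of called genes was 1497, 1470 or 1313, against 2432 with all libraries.

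**Figure D1:**
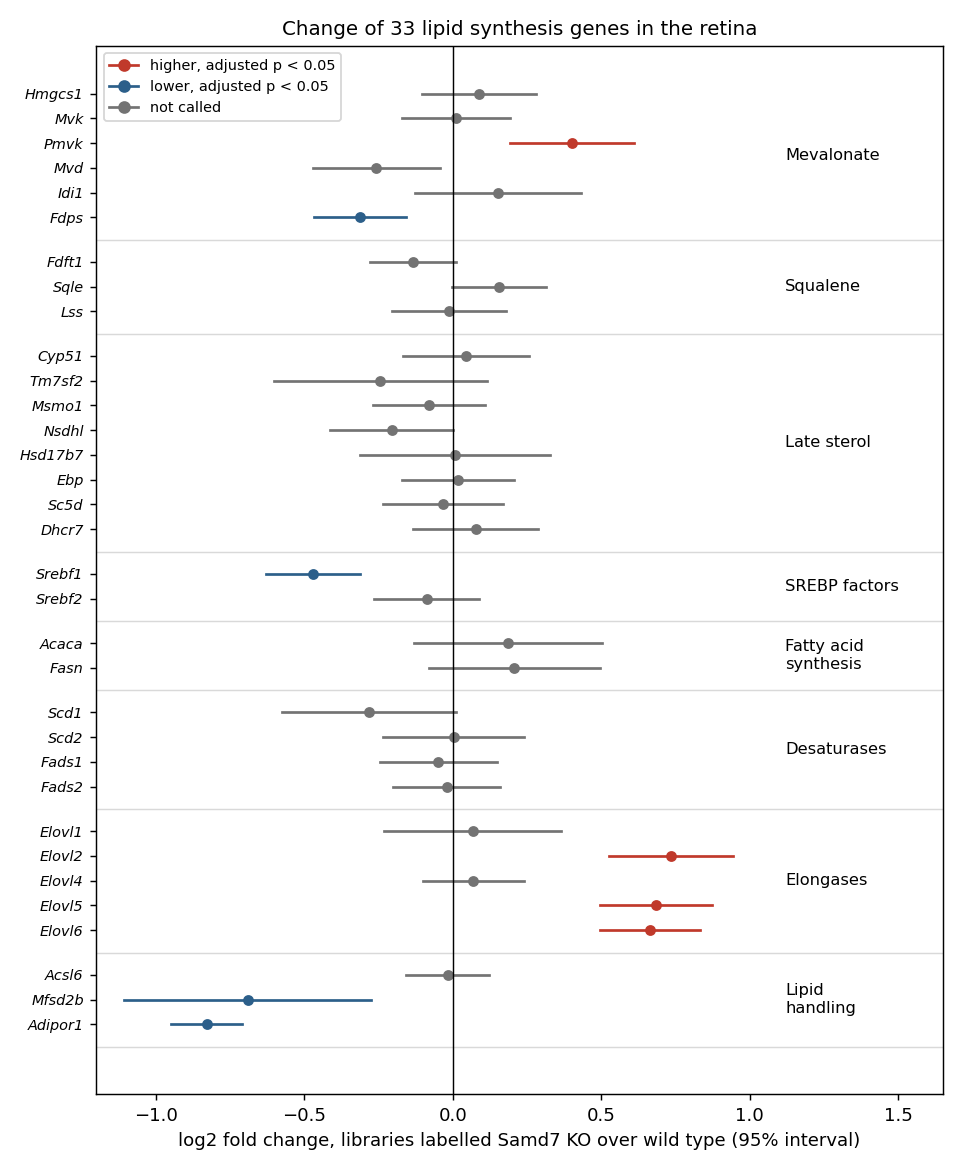
Log2 fold change of each of the 33 genes, libraries labelled Samd7 KO over wild type, on the x axis, with genes grouped by role down the page. Points are estimates, bars are 95% confidence intervals (CI) from limma (n = 3 per group), and colour marks calls. Elovl2, Elovl5 and Elovl6 sit between 0.67 and 0.74, Adipor1 at -0.83, and the 15 sterol enzymes without a call between -0.26 and 0.16.

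The upstream bases of the 3 elongases that rose are shown with those of Adipor1, which fell furthest among the 33 genes, and of Hmgcs1, the sterol enzyme gene whose window matched the letters of a sterol regulatory element. Each is the 250 bases before the annotated start from RefSeq (GRCm38.p6), read 5′ to 3′ on the strand of the gene. Capitals mark matches, on either strand, to TCACNCCAC (letters of a sterol regulatory element), CCAAT (the NF-Y box) or GGGCGG (the GC box). Matches may overlap, and the last letters of Adipor1 open a CCAAT match that crosses the start.
Elovl2 (chr13:41220404-41220653, minus strand): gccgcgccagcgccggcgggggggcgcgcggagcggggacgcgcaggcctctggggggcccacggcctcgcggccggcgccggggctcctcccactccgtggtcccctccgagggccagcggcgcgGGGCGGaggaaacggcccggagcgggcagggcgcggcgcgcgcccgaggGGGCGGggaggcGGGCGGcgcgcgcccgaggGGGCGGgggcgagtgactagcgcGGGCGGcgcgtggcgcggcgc
Elovl5 (chr9:77917115-77917364, plus strand): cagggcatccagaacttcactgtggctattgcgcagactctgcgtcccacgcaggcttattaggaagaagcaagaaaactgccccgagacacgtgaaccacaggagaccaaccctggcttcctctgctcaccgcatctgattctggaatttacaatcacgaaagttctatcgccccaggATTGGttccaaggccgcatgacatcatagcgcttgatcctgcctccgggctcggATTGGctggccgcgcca
Elovl6 (chr3:129532136-129532385, plus strand): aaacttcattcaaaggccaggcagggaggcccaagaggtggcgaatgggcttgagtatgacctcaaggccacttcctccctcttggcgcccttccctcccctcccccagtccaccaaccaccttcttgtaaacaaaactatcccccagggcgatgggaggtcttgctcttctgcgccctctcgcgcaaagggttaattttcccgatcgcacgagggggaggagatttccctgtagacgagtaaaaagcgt
Adipor1 (chr1:134415128-134415377, plus strand): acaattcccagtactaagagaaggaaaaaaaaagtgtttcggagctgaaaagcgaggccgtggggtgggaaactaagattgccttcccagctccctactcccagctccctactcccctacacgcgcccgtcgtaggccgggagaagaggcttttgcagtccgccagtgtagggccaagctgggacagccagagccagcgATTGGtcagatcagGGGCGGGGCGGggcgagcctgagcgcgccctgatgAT
Hmgcs1 (chr13:119690101-119690350, plus strand): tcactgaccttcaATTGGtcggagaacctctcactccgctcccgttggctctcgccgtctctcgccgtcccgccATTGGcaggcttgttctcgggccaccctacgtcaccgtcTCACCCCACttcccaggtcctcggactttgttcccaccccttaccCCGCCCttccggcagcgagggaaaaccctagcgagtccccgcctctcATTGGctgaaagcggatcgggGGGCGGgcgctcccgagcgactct
Of the 33 genes, 27 had at least 1 promoter window of 300 bases (250 before and 50 after a start), 37 windows in all. The sterol regulatory element letters were found in 1 of the 14 sterol enzyme genes with a window, Hmgcs1, and in 0 of the 6 elongase and desaturase genes. They were in 1.24% of all 32851 windows given, and in 1.44% of the 27025 genes with a window. CCAAT was found for 14 of the 14 sterol enzyme genes and 3 of the 6 elongase and desaturase genes, against 41.1% of the 27025 genes in the promoter table. GGGCGG was found for 13 of 14 and 4 of 6, against 38.2% of all genes. The windows of the 3 rising elongases did not look alike by these letters. The Elovl2 window shown held 5 GC boxes and no CCAAT, Elovl5 held 2 CCAAT boxes and no GC box, and Elovl6 held none of these motifs. A match describes the letters of a window, not a site.

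Elovl2, Elovl5 and Elovl6 rose by 1.67-fold, 1.61-fold and 1.58-fold. Elovl2, the elongase that carries polyunsaturated chains to the precursors of DHA (chromosome 13, 41182382 to 41220403), had 5938, 7766 and 6624 normalized reads in the libraries labelled KO, against 3872, 4197 and 4071 in wild type. All 3 libraries labelled KO lay above all wild-type libraries, and KO 2 was the highest. Elovl2 averaged 6776 ± 923 in KO-labelled libraries and 4047 ± 164 in wild-type retinas (± SD, n = 3 each), 1.67-fold higher (log2 fold change 0.74 with SE 0.09, 95% CI 0.53 to 0.94, adjusted p by limma = 3.02e-04). Elovl5, which lengthens polyunsaturated chains earlier in the same route (chromosome 9, 77917365 to 77984519), had 2097, 2294 and 2184 normalized reads in the libraries labelled KO, against 1436, 1385 and 1272 in wild type. The spread within each group was small beside the 1.61-fold difference (log2 fold change 0.68 with SE 0.09, adjusted p by limma = 2.63e-04). Elovl6, which lengthens saturated and monounsaturated chains (chromosome 3, 129532386 to 129638495), had 4522, 4343 and 4356 normalized reads in KO-labelled libraries, against 2866, 2577 and 2900 in wild type. Its groups were also separate, at 1.58-fold higher (log2 fold change 0.67 with SE 0.08, adjusted p by limma = 1.29e-04). Each of these 3 calls held in all 16 alternative fits, with the highest adjusted p at 0.00252 for Elovl2, 0.00343 for Elovl5 and 0.00133 for Elovl6 among them.

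The other elongases did not pass. Elovl4 (chromosome 9, 83778692 to 83806305) makes the very long polyunsaturated chains of photoreceptors, and mutations in its human counterpart cause a dominant macular dystrophy. It had 27510, 34119 and 30127 normalized reads in the libraries labelled KO, against 30409, 28329 and 28390 in wild type, so that the groups overlapped. Its log2 fold change was 0.07 (95% CI -0.10 to 0.24, adjusted p by limma = 0.618). Elovl1, an elongase of saturated and monounsaturated very long chains, had 713, 500 and 680 normalized reads in KO-labelled libraries, against 627, 590 and 570 in wild type (log2 fold change 0.07, 95% CI -0.23 to 0.37, adjusted p by limma = 0.804). KO 2 was the lowest library for Elovl1 and the highest for Elovl2 and Elovl4.

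Markers of other retinal cells also differed between the groups, and their part in the elongase result was not tested. Of 8 rod markers, 6 fell and 0 rose, and their summed level was 2939569 to 3189680 normalized reads in KO-labelled libraries and 4553024 to 4935146 in wild type. Of 8 Müller glia markers, 3 rose and 1 fell, and their summed level overlapped, at 121201 to 125672 in KO-labelled libraries and 124127 to 135853 in wild type. Those that rose were Slc1a3 (1.26-fold), Crym (1.76-fold) and Sox9 (1.23-fold). Glul fell, at 24451 to 29405 in KO-labelled libraries, against 38926 to 39513 in wild type, and it weighs on the sum. Of 8 microglia markers, 7 rose and 0 fell (4343 to 4932 in KO-labelled libraries, against 2832 to 3347 in wild type), and of 4 astrocyte markers 1 rose. That marker was Gfap, at 6614 to 8470 normalized reads in KO-labelled libraries, against 1581 to 2550 in wild type. The 4 together summed to 8312 to 10406, against 3104 to 4103 in wild type, and most of that sum was Gfap. Without it the other 3 overlapped, at 1698 to 1936 in KO-labelled libraries, against 1523 to 1703 in wild type. Of 6 cone markers, 1 rose, the short-wavelength opsin gene Opn1sw (9.53-fold), and 1 fell, the middle-wavelength opsin gene Opn1mw (2.47-fold). All 6 summed to 469013 to 491796 normalized reads in KO-labelled libraries, against 125972 to 128866 in wild type. Without Opn1sw the other 5 summed lower, at 62875 to 72422 in KO-labelled libraries, against 81439 to 86647 in wild type. Most of that difference was Opn1mw, at 9370 to 9948 in KO-labelled libraries, against 22746 to 24313 in wild type. The 4 cone markers without a call did not share a direction. Pde6c had all libraries labelled KO above wild type (1.21-fold), Gnat2 and Pde6h had all below, and Arr3 overlapped. No marker on these 5 lists was at 0 in all libraries. In bulk retina, fewer cells of a type and less RNA per cell cannot be told apart.

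**Figure D2:**
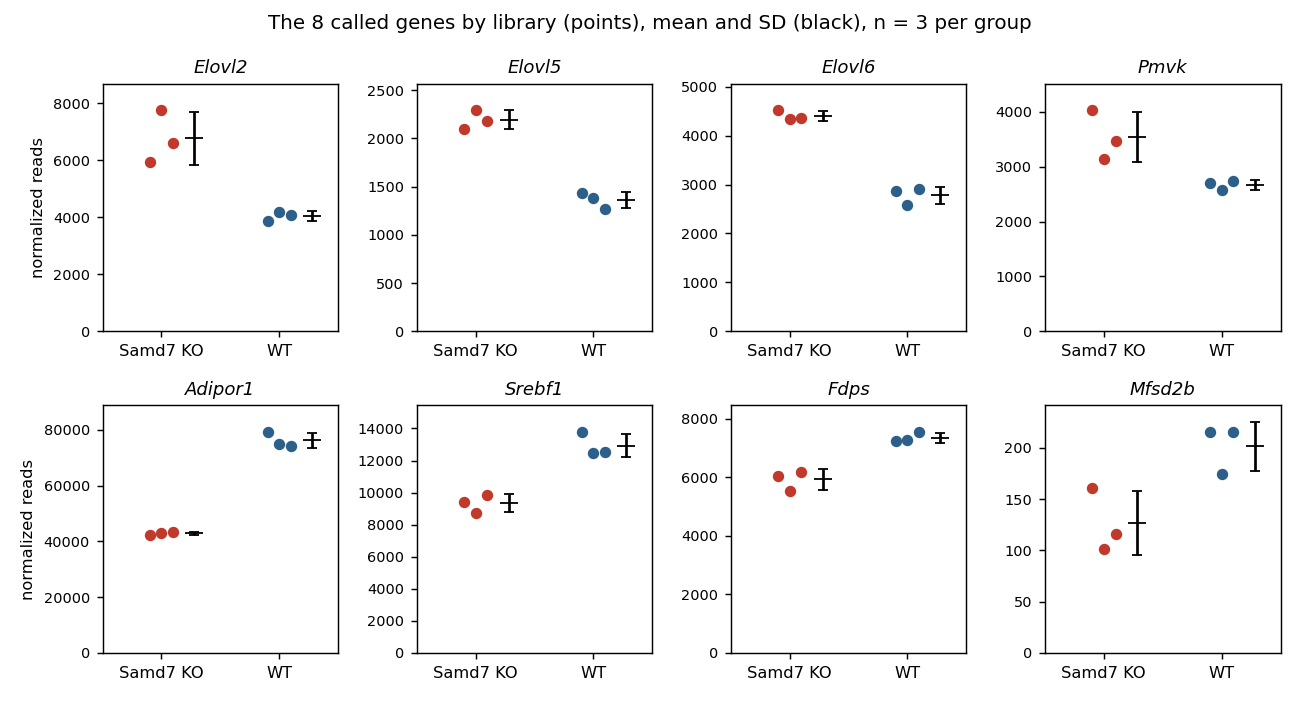
Normalized reads (y axis, from 0) of the 8 called genes in each library, with libraries labelled Samd7 KO left of wild type (WT). Points are libraries, and the black mark is the mean with its SD (n = 3 per group). The groups are separate for all 8 genes, with 0 overlaps, and Mfsd2b has the lowest reads, from 102 to 216.

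None of the 4 desaturases, which insert double bonds into fatty acid chains, was called by limma, edgeR or DESeq2, and 0 had an unadjusted limma p under 0.05. Fads1 and Fads2, the front-end desaturases of the polyunsaturated route, had log2 fold changes of -0.05 (95% CI -0.25 to 0.15) and -0.02 (95% CI -0.20 to 0.16). Fads2 had 5862, 5789 and 6291 normalized reads in KO-labelled libraries, against 6594, 5445 and 6205 in wild type. The wild-type libraries spanned the whole range of the libraries labelled KO. Scd2, the main stearoyl-CoA desaturase of brain, had 10203, 13838 and 12219 normalized reads in KO-labelled libraries, against 13429, 10862 and 11729 in wild type, with a log2 fold change of 0.00 (95% CI -0.23 to 0.24). Scd1, its counterpart in liver and skin, averaged 290 ± 38.5 in KO-labelled libraries and 351 ± 23.9 in wild-type retinas (± SD, n = 3 each), and did not pass (log2 fold change -0.28, adjusted p by limma = 0.205). For all 4 desaturases the 95% CI excluded a change of 1.5-fold in either direction.

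The enzymes that make saturated fatty acids de novo did not pass either by limma, edgeR or DESeq2. Fasn, fatty acid synthase, had 5184, 7516 and 6879 normalized reads in KO-labelled libraries, against 6395, 4886 and 5574 in wild type. Its log2 fold change was 0.21 (95% CI -0.08 to 0.50, adjusted p by limma = 0.349), and without KO 1 it was 0.36 and passed (adjusted p = 0.0326). Acaca, acetyl-CoA carboxylase, had a log2 fold change of 0.19 (95% CI -0.13 to 0.50, adjusted p by limma = 0.447). KO 1 and wild type 2 were the lowest libraries of their groups for both genes and for Scd2.

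Along the mevalonate steps, 1 of 6 enzymes rose and 1 fell. Pmvk, phosphomevalonate kinase (chromosome 3, 89454541 to 89469014), had 4030, 3138 and 3461 normalized reads in KO-labelled libraries, against 2698, 2571 and 2733 in wild type, and the groups did not overlap. It was 1.33-fold higher (log2 fold change 0.40 with SE 0.10, adjusted p by limma = 0.0172), a call that ended without KO 3 (adjusted p = 0.0557), wild type 2 (0.0771) or wild type 3 (0.0623), within a range of 0.00172 to 0.0771 over all 16 alternatives. Fdps, farnesyl diphosphate synthase (chromosome 3, 89093588 to 89101967), had 6050, 5537 and 6191 normalized reads in KO-labelled libraries, against 7245, 7270 and 7550 in wild type. It was 1.24-fold lower (log2 fold change -0.31 with SE 0.07, adjusted p by limma = 0.0133), and that call ended without wild type 3 (adjusted p = 0.0919, range 0.00364 to 0.0919). Thus the number of sterol enzymes called, 2 with all libraries, fell to 1 when KO 3 or wild type 2 was left out and to 0 when wild type 3 was. The other mevalonate enzymes did not pass. Hmgcs1, an early synthase of the pathway, had 4225, 5217 and 4398 normalized reads in KO-labelled libraries, against 4415, 4373 and 4178 in wild type, with KO 2 alone above the rest. Mvk, mevalonate kinase, had a log2 fold change of 0.01 (95% CI -0.17 to 0.19), and Idi1, isopentenyl diphosphate isomerase, of 0.15 (-0.13 to 0.43). Mvd, mevalonate diphosphate decarboxylase, was below wild type in all 3 libraries labelled KO, at 1231, 1096 and 1182 against 1275, 1396 and 1530, without passing (log2 fold change -0.26, adjusted p by limma = 0.118).

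From squalene to cholesterol, 0 of 11 enzymes were called by limma, edgeR or DESeq2, and 0 had an unadjusted limma p under 0.05. Sqle, squalene epoxidase and a control point of the pathway, had 4564, 4595 and 4242 normalized reads in KO-labelled libraries, against 3963, 3913 and 4134 in wild type. The groups did not overlap, yet the gene did not pass (log2 fold change 0.16, 95% CI 0.00 to 0.32, adjusted p by limma = 0.190). Fdft1, squalene synthase, lay the other way without passing, at 5832, 5803 and 5811 in KO-labelled libraries, against 6375, 6169 and 6609 in wild type (log2 fold change -0.13, adjusted p by limma = 0.224). Lss, which closes the sterol rings, had a log2 fold change of -0.01 (95% CI -0.20 to 0.18). Of all 33 genes, 5 had all libraries labelled KO above wild type and 7 had all below, against 15.9% and 15.2% of all genes tested.

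The late enzymes turn lanosterol into cholesterol. Cyp51, the lanosterol demethylase, had a log2 fold change of 0.05 (95% CI -0.17 to 0.26). Msmo1 and Nsdhl, which act together with Hsd17b7 in removing methyl groups, had log2 fold changes of -0.08 (95% CI -0.27 to 0.11) and -0.21 (-0.41 to 0.00), and Hsd17b7 itself of 0.01 (-0.31 to 0.33). Ebp, the sterol isomerase, Sc5d, the sterol desaturase, and Dhcr7, which completes cholesterol, had log2 fold changes of 0.02, -0.03 and 0.08. Tm7sf2, a sterol reductase, had the widest interval of the 17 enzymes, and its 3 libraries labelled KO stood at 889, 519 and 762 normalized reads, against 848, 851 and 810 in wild type. Its 95% CI ran from -0.60 to 0.11. Among the 15 sterol enzymes without a call, 14 had intervals that excluded a 1.5-fold change in either direction, Tm7sf2 being the exception.

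Summed over the 17 sterol enzymes, the libraries labelled KO had 43457, 44036 and 43246 normalized reads, against 43929, 43939 and 45278 in wild type. These sums overlapped, and their means stood at a ratio of 0.982. The 5 elongases together had 40780, 49021 and 43972 normalized reads in KO-labelled libraries, against 39210, 37079 and 37203 in wild type, with a ratio of 1.18 and no overlap. Elovl4 supplies most of the elongase sum, so the ratio lies below those of the 3 genes that rose. The 4 desaturases summed to 20328, 24772 and 23492 in KO-labelled libraries, against 25334, 20929 and 23011 in wild type, with a ratio of 0.990.

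**Figure D3:**
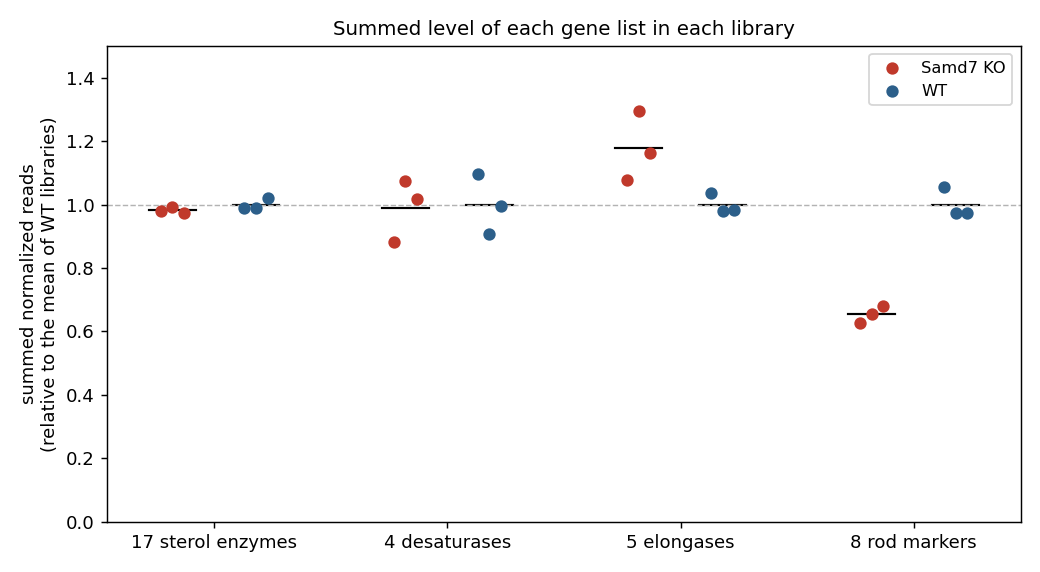
Summed normalized reads of each gene list in each library, divided by the mean of the wild-type (WT) libraries (y axis, from 0), with libraries labelled Samd7 KO left of wild type. Points are libraries and black lines are group means (n = 3 per group). The ratio of means is 0.982 for sterol enzymes, 0.990 for desaturases, 1.18 for elongases and 0.654 for rod markers.

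Of the SREBP factors, Srebf1 fell and Srebf2 did not pass. Srebf1, whose products favour fatty acid genes (chromosome 11, 60199084 to 60224186), had 9424, 8730 and 9860 normalized reads in KO-labelled libraries, against 13786, 12476 and 12533 in wild type. All libraries labelled KO lay below wild type, and the gene was 1.38-fold lower (log2 fold change -0.47 with SE 0.07, 95% CI -0.63 to -0.31, adjusted p by limma = 0.00112). The call held in all 16 alternatives. Srebf2, the main activator of sterol genes, averaged 9311 ± 459 in KO-labelled libraries and 9912 ± 988 in wild-type retinas (± SD, n = 3 each), with overlapping groups (log2 fold change -0.09, 95% CI -0.26 to 0.09, adjusted p by limma = 0.540).

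Adipor1 fell furthest of the 33 genes. It encodes adiponectin receptor 1, which mouse photoreceptors need to hold DHA and to survive (chromosome 1, 134415378 to 134433351). It had 42366, 43041 and 43288 normalized reads in KO-labelled libraries, against 79216, 75002 and 74342 in wild type. The libraries of each group were close together and the groups far apart, at 1.78-fold lower (log2 fold change -0.83 with SE 0.05, 95% CI -0.95 to -0.71, adjusted p by limma = 1.03e-06). The call held in all 16 alternatives. Beside it, the 8 rod markers summed to 0.654 of their wild-type level, and the ratio of group means was 0.563 for Adipor1, 0.555 for the rod transducin gene Gnat1 and 0.618 for the rod factor gene Nrl. Of the 9 pigment epithelium markers, 8 fell (1059 to 2252 normalized reads in libraries labelled KO, 3775 to 6156 in wild type, summed). The part of rods or of pigment epithelium in the fall of Adipor1 was not tested.

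Acsl6, an acyl-CoA synthetase that activates DHA in brain and retina, did not pass. It had 9756, 10666 and 10190 normalized reads in KO-labelled libraries, against 10324, 10409 and 10218 in wild type (log2 fold change -0.02, 95% CI -0.16 to 0.12, adjusted p by limma = 0.903). Mfsd2b, an exporter of sphingosine-1-phosphate best known in red blood cells and platelets, had 161, 102 and 116 normalized reads in KO-labelled libraries, against 216, 174 and 216 in wild type. The groups did not overlap, and the gene was 1.60-fold lower (log2 fold change -0.69 with SE 0.19, adjusted p by limma = 0.0351). That call ended without KO 2 (adjusted p = 0.104), KO 3 (0.117), wild type 1 (0.0927) or wild type 3 (0.141), within a range of 0.00551 to 0.141 over the alternatives. Red blood cell markers went the other way, and the part of red blood cells in the level of Mfsd2b was not tested. All 5 that were tested rose, and the 6 markers summed to 5667 to 8310 normalized reads in KO-labelled libraries and 1467 to 2232 in wild type. Slc4a1, the red cell anion exchanger, was at 0 in 2 wild-type libraries.

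Levels between genes were compared per kb of the longest annotated transcript. Adipor1 and Elovl4 stood above the others, at 12449 and 10192 normalized reads per kb in KO-labelled libraries and 22109 and 9678 in wild type. The genes next below them changed places between the groups. They were Pmvk, at 2967 in KO-labelled libraries and 2234 in wild type, Srebf1, at 2172 in KO-labelled libraries and 3008 in wild type, Fdps, at 2007 per kb in KO-labelled libraries and 2491 in wild type, and Scd2, at 2216 in KO-labelled libraries and 2201 in wild type. Sterol enzymes ran down to Hsd17b7, at 99.9 in KO-labelled libraries and 98.6 in wild type. The lowest of the 33 genes were Scd1, at 59.9 in KO-labelled libraries and 72.6 in wild type, and Mfsd2b, at 36.3 in KO-labelled libraries and 57.9 in wild type. The order rests on transcript lengths that these retinas may not use.

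**Figure D4:**
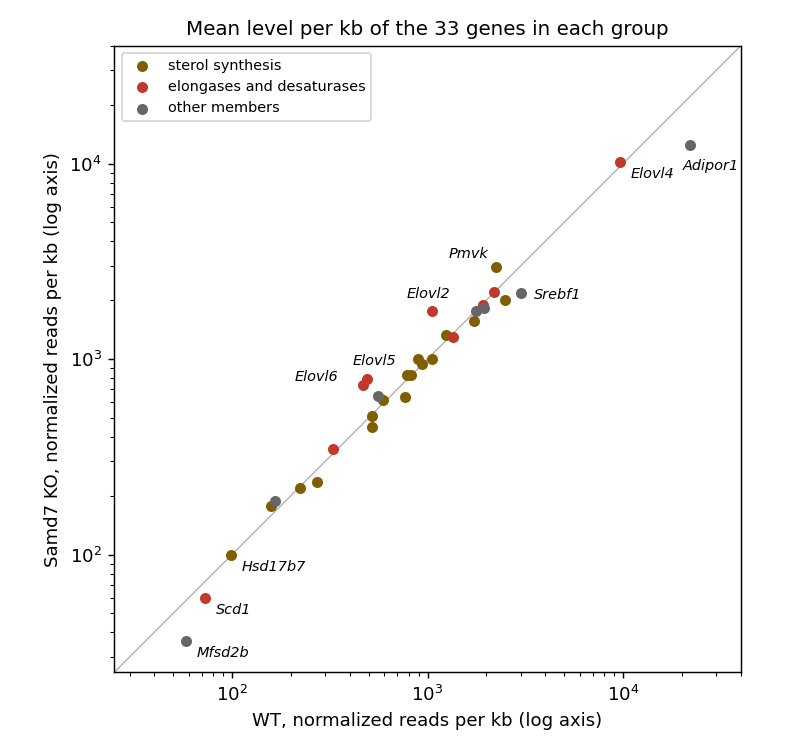
Mean normalized reads per kb of the longest transcript in libraries labelled Samd7 KO (y axis, log scale) against wild type (WT, x axis, log scale), 1 point per gene, coloured by role. The line marks equal levels. Adipor1 lies under the line, Elovl2, Elovl5 and Elovl6 lie over it, and most sterol enzymes lie close to it.

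Other lipid genes were read from 6 lists. Genes of uptake, activation and esterification of polyunsaturated fatty acids had 1 of 16 higher and 2 lower, with a median log2 fold change of -0.03. Agpat3, an acyltransferase that places DHA into phospholipid precursors, had 55442, 63863 and 61532 normalized reads in KO-labelled libraries, against 119877, 100049 and 104011 in wild type. It was 1.79-fold lower, with separate groups (log2 fold change -0.84 with SE 0.08, adjusted p by limma = 1.82e-05). Acsl3, an acyl-CoA synthetase of lipid droplets, had 17312, 23464 and 19431 normalized reads in KO-labelled libraries, against 13332, 13538 and 13112 in wild type, 1.51-fold higher (adjusted p by limma = 0.00167). Lpcat3, an acyltransferase of polyunsaturated phospholipids, was 1.26-fold lower (adjusted p by limma = 0.0479, up to 0.201 over the alternatives). Mfsd2a, the DHA transporter of the blood-retina barrier, had 490, 445 and 460 normalized reads in KO-labelled libraries, against 394, 345 and 338 in wild type. It did not pass (log2 fold change 0.37, adjusted p by limma = 0.0596), but 3 of the 16 alternatives called it (range 0.0252 to 0.226). The authors' adjusted p by DESeq2 was 0.0462.

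Peroxisomal oxidation, which includes the last step to DHA, had 2 of 8 genes higher and 0 lower, with a median log2 fold change of 0.07. Crot, carnitine octanoyltransferase, which exports shortened chains from peroxisomes, had 2853, 3096 and 2880 normalized reads in KO-labelled libraries, against 2047, 1855 and 1786 in wild type, 1.55-fold higher (adjusted p by limma = 3.70e-04). Hsd17b4, the bifunctional enzyme of the cycle, was 1.32-fold higher (adjusted p by limma = 0.00884, up to 0.0511 over the alternatives). Other fatty acid enzymes had 1 of 17 tested genes higher, Me1, malic enzyme (1.27-fold, adjusted p by limma = 0.0228), and 1 lower, Thrsp, a lipogenic thyroid-responsive protein (1.21-fold, adjusted p by limma = 0.0390), with a median of 0.00. Both calls were lost in some alternatives, with adjusted p up to 0.106 and 0.180. Tecr, the reductase shared by all elongation cycles, averaged 23536 ± 1214 in KO-labelled libraries and 26971 ± 555 in wild-type retinas (± SD, n = 3 each). It did not pass (log2 fold change -0.20, adjusted p by limma = 0.0594, from 0.0285 to 0.247 over the alternatives).

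Among other sterol enzymes 0 of 5 tested genes were called, with a median log2 fold change of -0.19. Of these, 2 had an unadjusted limma p under 0.05, edgeR called 0 and DESeq2 called 1. Among genes of SREBP control and sterol uptake, 0 of 11 rose and 1 fell, with a median of 0.05. That gene was Mylip, a ubiquitin ligase for lipoprotein receptors, at 1.28-fold lower (adjusted p by limma = 0.0219, up to 0.124 over the alternatives). Scap, the escort of SREBPs, had a log2 fold change of 0.23 and did not pass (adjusted p by limma = 0.0522, from 0.00926 to 0.214 over the alternatives). Among genes of sterol efflux and the LXR receptors, 0 of 14 rose and 2 fell, with a median of 0.06. Abcg1, a sterol exporter, had 3774, 3939 and 4048 normalized reads in KO-labelled libraries, against 5203, 5176 and 5795 in wild type, 1.38-fold lower (adjusted p by limma = 0.00180). Cyp27a1, a mitochondrial sterol hydroxylase, was 1.46-fold lower (adjusted p by limma = 0.0147, up to 0.0731). Oligodendrocyte markers, from a cell type rich in sterol synthesis, had 0 of 4 tested genes called by limma, where 3 had an unadjusted p under 0.05, 0 called by edgeR and 1, Mbp, by DESeq2. All 7 summed to 2450 to 2750 normalized reads in KO-labelled libraries and 2237 to 2496 in wild type, and Opalin was at 0 in all wild-type libraries. Most of that sum was Cnp. Without it the other 6 summed lower, to 509 to 551 in KO-labelled libraries, against 631 to 659 in wild type. Endothelial markers had 1 of 6 higher and 0 lower (6367 to 7544 in KO-labelled libraries, against 4595 to 5722 in wild type, summed). Most of the difference between these sums was the called gene, Kdr, at 3256 to 4152 in KO-labelled libraries, against 1821 to 2379 in wild type. Of the 6, 3 had all libraries labelled KO above wild type, 1 (Pecam1) had all below and 2 overlapped. The authors' deposited table, from DESeq2, listed 8 of the 33 genes at an adjusted p under 0.05 (its test against no change), the same 8 genes with the same signs. Since the libraries are shared, the match is no independent support.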

How the data were processed

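Each library was made from polyadenylated retinal RNA with a template-switching kit for small inputs and 15 cycles of PCR, per the labels' protocols. The labels name no molecular identifiers, so PCR copies are counted as reads. The submitters' processing notes list, without stating what each did, STAR 2.7.3a, SAMtools 1.9, HTSeq 0.12.4, DRAGEN, cutadapt 3.0 and DESeq2, and name the builds mm10 and GRCm38. Whether reads were counted by strand is not known from them. The signal deposited for each library is a count of reads per gene over a single size factor. This was read from the values, since the headers of the per-library columns give only library names: all 166478 values above 0 (100%) came out as whole reads within 0.01. The authors' own log2 fold changes, scores (Wald statistics) and p-values were deposited beside it, per the file headers.

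Testing was limited to the 20277 genes that reached 10 in 3 or more libraries, with limma-trend on log2(value + 1), two-sided, called at a Benjamini-Hochberg adjusted p under 0.05. Folds are ratios of group means, and log2 fold changes, on the log2(value + 1) scale, understate changes of low genes. Versions were DESeq2 1.42.0, edgeR 4.0.16, limma 3.58.1 and R 4.3.3. Alternatives were edgeR with TMM or upper-quartile factors and DESeq2 on recovered reads, total-read scaling, pseudocounts of 0.5 and 5, no filter, a filter at 50, a replicate block, removal of the trend with transcript length (18216 genes with a length), and leaving out each library. The tests were also run on simulated counts, with outcomes not reported here, and no call rests on that run. No libraries of a group were duplicates, with chi-square over degrees of freedom from 7.20 to 33.5.

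The 33 genes and all lists were chosen with earlier results of these data known. All 33 are described, and from each other lipid list up to 4 genes with the smallest adjusted p could be named, of which some are not reported here. Marker lists are given by counts and sums. Gene positions and promoters are from RefSeq GRCm38.p6, and lengths from GENCODE annotation of GRCm38.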

Additional observations from a re-analysis of the deposited data

How the results depend on the processing

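Of 528 values of the 33 genes under the 16 alternatives, 482 kept their direction and side of the threshold, 8 lost their call, 1 gained it (Fasn) and 37 changed sign. None of the 37 was in a gene with a call. The calls of Elovl2, Elovl5, Elovl6, Adipor1 and Srebf1 held throughout. All 8 calls held under the 10 alternatives that kept every library. Leaving out single libraries gave 5 to 9 called genes among the 33, 0 to 2 among sterol enzymes, and 1313 to 3247 across the table, 804 to 1862 higher and 509 to 1385 lower; the cause was not tested. With a replicate block 656 genes were lower, against 1056 without it, and 1624 were called in all. Deviations of same-numbered libraries correlated at -0.182, -0.133 and -0.014, so the numbers do not pair the samples.

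Signs turned as follows, as log2 fold changes. With upper-quartile factors Mvk was -0.026, Hsd17b7 -0.017, Ebp -0.018 and Scd2 -0.026. With total-read scaling Lss was 0.045, Sc5d 0.025, Fads1 0.0092, Fads2 0.037 and Acsl6 0.040. With the length trend removed Cyp51 was -0.0077, Hsd17b7 -0.064 and Scd2 -0.086. Leaving out single libraries, the ranges were -0.0035 to 0.15 for Hmgcs1, -0.026 to 0.062 for Mvk, -0.062 to 0.015 for Lss, -0.044 to 0.12 for Cyp51, -0.14 to 0.12 for Hsd17b7, -0.029 to 0.056 for Ebp, -0.10 to 0.019 for Sc5d, -0.099 to 0.12 for Scd2, -0.11 to 0.036 for Fads1, -0.098 to 0.040 for Fads2, -0.030 to 0.23 for Elovl1, -0.012 to 0.14 for Elovl4 and -0.049 to 0.015 for Acsl6.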
